A study of Mus musculus with 6 samples.

Results

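Intercalated cells of the kidney collecting duct were studied in 2 naive, 2 rejecting, and 2 tolerized mouse kidneys by single cell RNA sequencing. Cells were chosen on raw counts of unique molecular identifiers (UMIs, tags that count each captured transcript once). Barcodes were kept if they held 500 or more UMIs and 250 or more genes, with no more than 50% of UMIs from mitochondrial genes. It was taken as an intercalated cell with at least 2 UMIs of Atp6v1g3 and Atp6v0d2 together and no UMI of Slc12a1, Slc12a3, Ptprc, or Cd3e. A cell was type A if its UMIs of Slc4a1 and Aqp6 exceeded those of Slc26a4 and Slc4a9, and type B if they were fewer. The rule found 364 cells among 49797 kept barcodes of 60181 in all. Of these, 82 were type A, 169 type B, and 113 untyped, because both sums were 0 in 111 cells and equal in 2. These 10 genes chose the cells, so their differences between the types are a description.

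Naive kidneys came from untransplanted male C57BL/6 mice aged 10 to 12 weeks. Rejecting and tolerized kidneys were BALB/c kidneys, labelled male and 6 to 7 weeks old. They were grafted into male C57BL/6 mice whose own kidneys had both been removed, and were taken on day 15. Recipients of tolerized kidneys had also been infused before and after grafting with donor BALB/c splenocytes treated with ethylenecarbodiimide (ECDI), a crosslinker, and recipients of rejecting kidneys had not. All grafts were therefore BALB/c organs in a C57BL/6 host. Naive and transplanted kidneys differed in strain, age, grafting, and library processing, and the shares of these in any difference cannot be told apart. Each library was 1 kidney, and the study ran the kidneys in 2 experiments with 1 kidney of each group, which the labels do not tie to the replicate numbers.

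Intercalated cells regulate acid-base balance in the connecting tubule and collecting duct, where they lie among principal cells that reabsorb sodium and water. They carry a vacuolar proton pump (V-ATPase), built from a cytosolic V1 sector that splits ATP and a membrane V0 sector that passes protons. In type A cells, the pump faces the urine and the chloride-bicarbonate exchanger AE1, the product of Slc4a1, faces the blood, so that acid is excreted. Type B cells place the exchanger pendrin, the product of Slc26a4, on the urinary side and secrete bicarbonate. The transcription factor Foxi1 is required for both types. Atp6v1g3 (GRCm38 chromosome 1, 138273738 to 138289462) encodes a V1 subunit and Atp6v0d2 (chromosome 4, 19876841 to 19922605) a V0 subunit. Slc4a1 lies on chromosome 11 (102348824 to 102366203) and Slc26a4 on chromosome 12 (31519827 to 31559969), both on the minus strand.

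The label was checked against genes that the rule did not use. A Foxi1 UMI was found in 78.0% of type A cells and 82.2% of type B cells, against 0.760% of 1184 principal cells and 0.262% of 13378 proximal tubule cells, which should lack it. Median depths were 9228, 9931, 5642, and 4245 UMIs, in that order. Hepacam2, a membrane protein of intercalated cells, was found in 72.0% of type A cells and 80.5% of type B cells, against 0.336% of proximal tubule cells. Of the 113 untyped cells, 8.85% had a Foxi1 UMI and 97.3% had a UMI of the proximal tubule transcript Kap, at a median of 3749 UMIs per cell. The typed cells thus carried the markers of the label, whereas most untyped cells did not, and values for the 251 typed cells are given where they change a call. Near the threshold, 1004 barcodes with 1 UMI of the selecting pair and 82 cells with 2 UMIs had a Foxi1 UMI in 1.20% and 1.22%. The share was 92.4% in the 118 cells with 50 or more. In the plot of UMIs per cell, the smaller of the 2 typing sums was 0 in 199 of 251 typed cells and above 20% of the total in 11. Both sums were above 0 in 35 of 82 type A cells and in 17 of 169 type B cells. A UMI of Slc4a9 was found in 32 of the type A cells. For 22 cells, the call rested on a difference of 1 UMI.

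**Figure D1:**
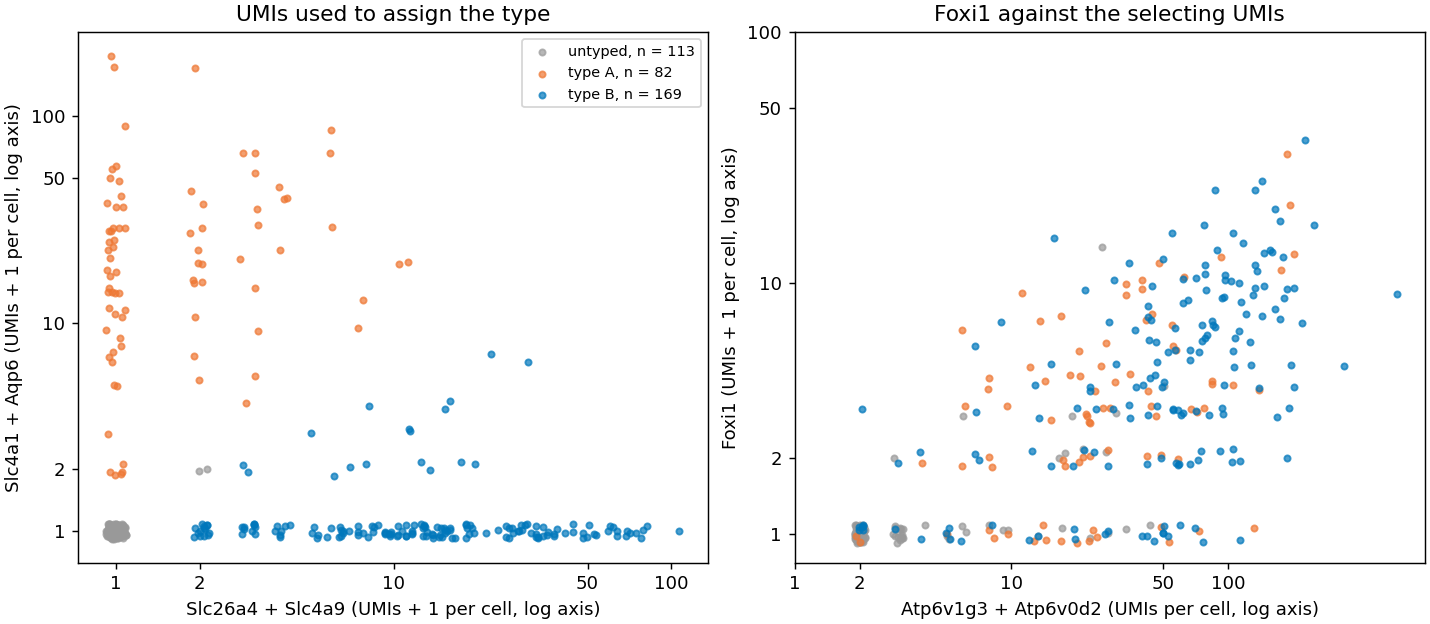
Each point is 1 intercalated cell, slightly shifted so that points do not hide each other, on log axes. Left, UMIs of Slc4a1 and Aqp6 against UMIs of Slc26a4 and Slc4a9, each plus 1, with type A (82 cells) toward the vertical axis, type B (169 cells) toward the horizontal axis, and untyped cells (113) almost all at the origin. Off the axes, with both sums above 0, are 35 type A and 17 type B cells. Right, Foxi1 UMIs plus 1 against the selecting UMIs of Atp6v1g3 and Atp6v0d2, where untyped cells lie mainly at 2 or 3 selecting UMIs with no Foxi1.

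The number of cells set the precision. Intercalated cells numbered 133 and 64 (naive), 36 and 32 (rejecting), and 39 and 60 (tolerized). Their summed depth was 903479 and 408335 UMIs (naive), 340791 and 530799 UMIs (rejecting), and 777958 and 1036848 UMIs (tolerized). Median UMIs per cell were 6840 and 5318.5 (naive), 8442 and 14251 (rejecting), and 18362 and 16539 (tolerized), so that depth per cell moved with the groups. The median mitochondrial share was 27.9% and 28.5% in naive kidneys and between 20.1% and 24.0% in transplanted kidneys. Untyped cells gave 22.3% and 20.2% of these UMIs (naive), 7.52% and 0.469% (rejecting), and 15.9% and 28.2% (tolerized). The 2 naive libraries shared 111 barcodes and transplanted libraries 18 to 35 per pair. No barcode of an intercalated cell was shared between libraries. A doublet score marked 47 of the 364 cells, which were kept.

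Type A and type B cells were first compared within each kidney, on raw CPM (the UMIs of a gene relative to all UMIs of the summed cells of that type) as log2(CPM + 10). Because the types were divided on genes of the same cells, the values are a description without a test. Among 3143 genes with a mean of at least 50 CPM in either type, 198 were higher in type A and 242 were higher in type B in all 6 kidneys, and 68 and 67 of these differed by more than 1 on the log2 scale. Slc26a7, a chloride-bicarbonate exchanger, was found in type A cells of every kidney, at 39.8 and 239 CPM (naive), 114 and 244 CPM (rejecting), and 70.9 and 194 CPM (tolerized). It had no UMI in type B cells of any kidney. Kit, a receptor tyrosine kinase, was at 376, 285, 349, 389, 101, and 555 CPM in type A cells, in the same order of kidneys, against 4.71, 29.5, 6.74, 28.8, 19.8, and 54.8 in type B. The adhesion receptor gene Adgrf5 (mean difference 3.52) and the transcription factor gene Dmrt2 (3.25) were also higher in type A in 6 of 6 kidneys. The other genes at the top were Cbr2, a carbonyl reductase (3.50), Nupr1, a stress-induced nuclear protein (3.40), 2610016A17Rik, an antisense transcript (3.32), and Cryab, a small heat shock protein (2.996). The antisense transcript lies next to Dmrt2 without overlap, and its reads may be shared with other genes.

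Type B cells carried the homeobox gene Hmx2 (chromosome 7, 131548773 to 131558014), at 586 and 682 CPM (naive), 862 and 787 CPM (rejecting), and 649 and 775 CPM (tolerized). In type A cells, Hmx2 was at 79.5 and 22.8 CPM in the naive kidneys and had no UMI in the 4 transplanted kidneys. The insulin receptor-related receptor gene Insrr was at 187 to 463 CPM in type B cells and at most 47.0 CPM in type A cells, so that the types did not overlap. Igfbp5, which encodes an insulin-like growth factor binding protein, differed by a mean of -4.45 and the kallikrein gene Klk1 by -4.04, both lower in type A in 6 of 6 kidneys. Stap1, an adaptor protein (-3.02), Syt7, a synaptotagmin of exocytosis (-2.998), Emb, the transporter chaperone embigin (-2.77), and Spp1, osteopontin (-2.73), completed the group. Genes of the shared machinery differed less. The carbonic anhydrase gene Car12 was lower in type A (-1.24), the ammonia transporter genes Rhbg (0.84) and Rhcg (0.76) were higher in type A, all in 6 of 6 kidneys, and the V1 subunit gene Atp6v1b1 differed by -0.12 with type B higher in 5 kidneys.

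**Figure D2:**
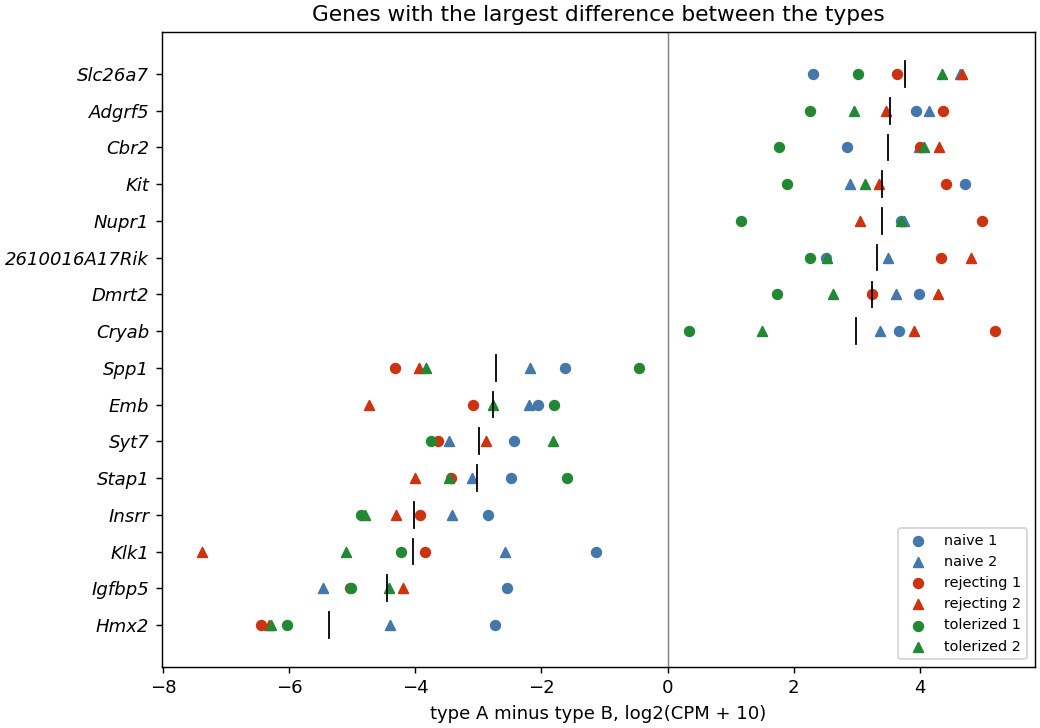
Difference of type A minus type B in log2(raw CPM + 10), for the 8 genes with the largest mean difference in each direction among those with the same sign in all 6 kidneys, the 10 rule genes left out. Each point is 1 kidney (color for group, shape for replicate) and the black line is the mean, and no point of these 16 genes crosses 0.

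Type A cells also held transcripts of principal cells. Aqp2, the water channel of principal cells, was at 3221 and 7322 CPM (naive), 2449 and 1177 CPM (rejecting), and 20.2 and 1595 CPM (tolerized) in type A cells, against 181, 611, 53.9, 196, 574, and 1158 in type B cells. The first tolerized kidney, which had only 4 type A cells, stood apart. Whether these UMIs came from the cells, from doublets, or from free RNA was not tested. An Aqp2 UMI was found in 44 of 82 type A and 45 of 169 type B cells.

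Intercalated cells made up 1.84% (exact 95% binomial interval, 1.54% to 2.18%) and 1.06% (0.815% to 1.35%) of kept barcodes in the naive kidneys. The rejecting kidneys held 0.307% (0.215% to 0.424%) and 0.396% (0.271% to 0.559%). The tolerized kidneys held 0.397% (0.283% to 0.543%) and 0.872% (0.666% to 1.12%). These intervals cover counting error only. The mean was 1.45% ± 0.555 (SD, n = 2) in naive, 0.351% ± 0.0632 in rejecting, and 0.635% ± 0.336 in tolerized kidneys. Both naive kidneys lay above all 4 transplanted kidneys, and both tolerized kidneys lay above the rejecting kidneys, the first by little. Both orders depended on the cells counted. When thinned to 1500 UMIs, the second tolerized kidney (1.04%) lay above the second naive kidney (0.910%). The first tolerized kidney lay below both rejecting kidneys with at least 1500 UMIs (0.393% against 0.415% and 0.397%) and without marked doublets (0.265% against 0.338% and 0.304%). Each comparison gave p = 0.33 in a two-sided exact permutation test, the smallest p that 2 against 2 kidneys allow, so that no such comparison can pass 0.05. Leukocytes enter this denominator. Among kept barcodes without a UMI of Ptprc or Cd3e, the share was 1.89% and 1.10% (naive), 0.751% and 1.37% (rejecting), and 0.767% and 1.31% (tolerized), and the groups overlapped. Exact permutation p values were then 0.6667 for rejecting and for tolerized against naive kidneys, and 1 for tolerized against rejecting. Untyped cells count in all of these shares. Typed cells alone made up 1.22% and 0.644% (naive), 0.247% and 0.371% (rejecting), and 0.306% and 0.509% (tolerized) of kept barcodes. The first tolerized kidney then lay below the second rejecting kidney. Without Ptprc and Cd3e UMIs, typed cells were 1.25% and 0.669%, 0.605% and 1.28%, and 0.590% and 0.766%, and the groups overlapped.

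Type A cells were 40.9% and 25.6% of typed cells (naive), 41.4% and 30% (rejecting), and 13.3% and 31.4% (tolerized). The groups overlapped, with means of 33.3% ± 10.8, 35.7% ± 8.05, and 22.4% ± 12.8 (SD, n = 2), and the exact permutation p was 0.6667 for each of the 3 comparisons. The value of 13.3% in the first tolerized kidney rested on 4 type A and 26 type B cells (exact 95% binomial interval, 3.76% to 30.7%). The doublet score marked all 4 of these type A cells, and without marked cells the share was 0 of 19 typed cells in that kidney and 14.3% in the second rejecting kidney. In each of the 6 kidneys, type B cells outnumbered type A cells. Among cells with at most 20% mitochondrial UMIs, this order turned in both naive kidneys, with 7 type A and 5 type B cells in the first and 5 and 3 in the second.

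**Figure D3:**
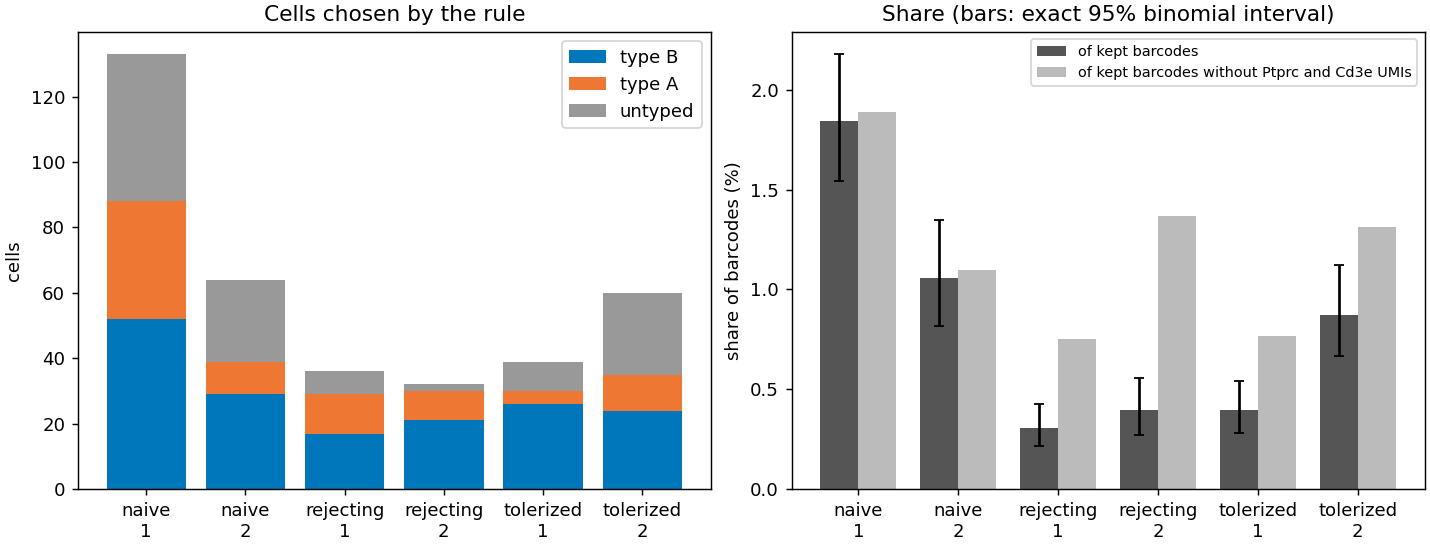
Left, intercalated cells per kidney as stacked bars of type B, type A, and untyped cells, from 133 in the first naive to 32 in the second rejecting kidney. Right, their share in percent of kept barcodes (dark, with exact 95% binomial intervals) and of kept barcodes without Ptprc and Cd3e UMIs (light). The dark bars are highest in the naive kidneys, and the light bars of the groups overlap.

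Gene levels were then compared between groups on UMIs summed over the intercalated cells of each kidney, with edgeR's quasi-likelihood test. Levels below are CPM after TMM scaling, unless named raw, given for the first and second kidney of each group. Differences are log2 fold changes ± SE. Throughout, the SE was derived from the test, as the size of the fold change over the square root of its F statistic. FDR stands for the p value after Benjamini-Hochberg adjustment over all 7664 genes tested. At an FDR of 0.05, 699 genes (9.12%) differed between rejecting and naive kidneys, with 361 higher (4.71%) and 338 lower (4.41%). Between tolerized and naive kidneys, 586 genes (7.65%) differed, with 298 higher (3.89%) and 288 lower (3.76%). Both comparisons used the same 2 naive kidneys. The counts rested on these kidneys: without the first naive kidney they were 130 and 88, and without the second 221 and 170. Without the second rejecting kidney, 370 genes differed between rejecting and naive kidneys, and without the second tolerized kidney 385 differed between tolerized and naive. In typed cells alone, 544 of 7316 genes (7.44%) differed between rejecting and naive kidneys, 318 of them higher (4.35%) and 226 lower (3.09%). Between tolerized and naive kidneys, 413 (5.65%) differed, 244 higher (3.34%) and 169 lower (2.31%). The 2 groups did not overlap for 55% and 54.8% of all 7664 genes, called or not.

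Subunits of the proton pump mostly did not pass the test. Of 10 tested V1 subunits, 2 were lower in rejecting and in tolerized than in naive kidneys, against 4.41% and 3.76% of all genes, and of 8 tested V-ATPase V0 and accessory subunits, none was called by edgeR or DESeq2 in either comparison, with 1 at an unadjusted p under 0.05 in each. The median log2 fold change of the V1 list was -0.28 in rejecting and -0.34 in tolerized against naive kidneys, beside 0.02 for all genes in both comparisons. Atp6v1a, the catalytic A subunit, was at 1899 and 1706 CPM (naive), 770 and 750 CPM (rejecting), and 897 and 938 CPM (tolerized), so that no transplanted kidney reached the naive level. It fell by 1.25 ± 0.25 in rejecting (FDR 0.0073) and by 0.97 ± 0.24 in tolerized kidneys (FDR 0.028) against naive, and in typed cells by 1.44 and 1.00. Atp6v1b2, the B2 subunit found in many cell types, fell from 140 and 130 CPM to 70.8 and 53.6 in rejecting (FDR 0.021) and 61.9 and 56.9 in tolerized kidneys (FDR 0.014). Atp6v1b1, the B1 subunit of kidney and inner ear, was at 343 and 282, 422 and 373, and 350 and 395 CPM (log2 fold change 0.34 ± 0.25 in rejecting, 0.25 ± 0.24 in tolerized). Atp6v0a4, the a4 subunit of the same pump, was at 490 and 445, 657 and 540, and 526 and 480 CPM. The Atp6v1a and Atp6v1b2 calls were lost without either naive kidney, Atp6v1b2 also without the second rejecting or second tolerized kidney, and Atp6v1a in tolerized kidneys also without either tolerized kidney. In typed cells, Atp6v1b2 was called in tolerized kidneys and not in rejecting kidneys.

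The promoter of Atp6v1b1 is shown because Foxi1 is known to act on this gene. It covers 250 bases before to 50 bases after the start in RefSeq (GRCm38.p6, chr6:83742767-83743066, plus strand), written 5′ to 3′. Capitals mark a match, on either strand, to the forkhead motif GTAAACA.
Atp6v1b1: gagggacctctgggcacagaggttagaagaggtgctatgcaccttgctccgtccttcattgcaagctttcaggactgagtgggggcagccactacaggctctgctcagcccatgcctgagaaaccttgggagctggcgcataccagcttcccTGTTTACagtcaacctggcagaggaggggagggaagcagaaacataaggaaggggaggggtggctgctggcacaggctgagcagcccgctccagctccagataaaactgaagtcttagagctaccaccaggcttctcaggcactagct
The letters GTAAACA were found in 3.55% of 27025 promoters of this length, and in 1 of 7 promoters of V1 subunits in the table, that of Atp6v1b1. A match is not evidence of binding.

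Among 21 tested genes of acid-base transport, 4 were lower in rejecting than in naive kidneys and 3 were lower in tolerized than in naive kidneys, against 4.41% and 3.76% of all genes. The 1 called higher, in rejecting kidneys, was the typing gene Slc4a9. Atp4a (chromosome 7, 30712209 to 30725534), the catalytic subunit of the gastric type of proton-potassium pump, was at 103 and 66.1 CPM (naive), 2.83 and 0 CPM (rejecting), and 12.4 and 10.8 CPM (tolerized). It fell by 6.08 ± 0.69 (FDR 0.00016) and 2.90 ± 0.39 (FDR 0.00063). Both naive kidneys lay above 60 CPM and all transplanted kidneys below 13. Principal cells showed the same order, at 177 and 124 raw CPM in naive kidneys and at most 6.03 in transplanted kidneys. Slc4a9 (AE4), a basolateral transporter of type B cells and 1 of the typing genes, was at 62.4 and 120, 334 and 259, and 151 and 165 CPM. All 4 transplanted kidneys lay above both naive kidneys. Since it helped to assign the types, these levels are a description. Rhbg, a basolateral ammonia transporter, fell by 1.30 ± 0.31 in rejecting kidneys (FDR 0.022), from 773 and 531 to 280 and 252 CPM, and was at 242 and 429 CPM in tolerized kidneys (FDR 0.077). In typed cells, Rhbg fell in both, by 1.504 ± 0.30 (FDR 0.0077) and 1.11 ± 0.29 (FDR 0.040), and Bsnd, a chloride channel subunit, also fell in rejecting kidneys (FDR 0.026). Car12, a membrane carbonic anhydrase, fell by 0.93 ± 0.25 in rejecting kidneys (FDR 0.034), from 1024 and 1177 to 563.5 and 593 CPM, but its log2 fold change was 0.12 among cells with at most 20% mitochondrial UMIs. Car4 and Car15, both membrane-bound carbonic anhydrases, were among the lower genes, Car4 in both comparisons and Car15 in tolerized kidneys. Car4 was too low for testing in typed cells. Car15 had no such pattern in rejecting kidneys, at 156 and 25.01 CPM against 68.4 and 50.9 in naive and 1.24 and 12.8 in tolerized kidneys. The calls for Rhbg and Car12 were lost without any 1 of the 4 kidneys compared. Without the first naive kidney, Atp4a in rejecting kidneys was the only call left among these 21 genes in either comparison.

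The other typing genes are given as a description. Slc26a4 was at 657 and 750.0 CPM (naive), 626 and 856 CPM (rejecting), and 842.5 and 388 CPM (tolerized), and the groups overlapped. Slc4a1 was at 307 and 239, 229 and 136, and 48.2 and 196 CPM, so that all transplanted kidneys lay below both naive kidneys. Aqp6, a water and anion channel of type A cells, was at 424 and 402, 1002 and 564.5, and 181 and 324 CPM. Car2, the cytosolic carbonic anhydrase, was at 1611 and 1663, 1421 and 1550, and 1191 and 1272 CPM (FDR 0.78 and 0.35). Levels of typing genes summed over all cells also move with the number of cells of each type, and the first tolerized kidney, with 4 type A cells, was lowest for Slc4a1 and Aqp6.

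Of 14 tested regulators and receptors of intercalated cells, 2 were higher and 4 lower in rejecting kidneys, and 1 was lower in tolerized kidneys, all against naive. Over all genes, 4.71% were higher and 4.41% lower in rejecting and 3.76% lower in tolerized kidneys. Foxi1 was at 343 and 595 CPM (naive), 198 and 243 CPM (rejecting), and 262 and 212 CPM (tolerized). Its fall of 1.07 ± 0.30 in rejecting kidneys passed the test (FDR 0.043), and its value in tolerized kidneys, -0.97 ± 0.29, did not (FDR 0.062). This call was lost without either naive or either rejecting kidney, and with cells of at most 20% mitochondrial UMIs the log2 fold change was 0.06. Hepacam2 fell from 326 and 330 CPM to 159 and 189 in rejecting (FDR 0.04) and 190.5 and 152 in tolerized kidneys (FDR 0.033). Insrr (FDR 0.048) and the α-ketoglutarate receptor gene Oxgr1 (FDR 0.034) fell by 1.01 ± 0.29 and 1.32 ± 0.35 in rejecting kidneys, and for Insrr the value with at most 20% mitochondrial UMIs was 0.21. P2ry14, the receptor for UDP-glucose in type A cells, rose by 2.37 ± 0.50 in rejecting kidneys (FDR 0.011). Its values were 22.8 and 10.2, 45.3 and 136, and 27.2 and 31.4 CPM, so that the second rejecting kidney stood far above the rest, and without it the log2 fold change was 1.31 and did not pass. The transcription factor gene Tfcp2l1 was at 888 and 808.5, 1107 and 981, and 936.5 and 1073 CPM (FDR 0.50 and 0.61). None of the 7 calls in this group was kept without the first naive kidney. Parm1, the other gene called higher in rejecting kidneys, did not pass in typed cells (FDR 0.12).

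**Figure D4:**
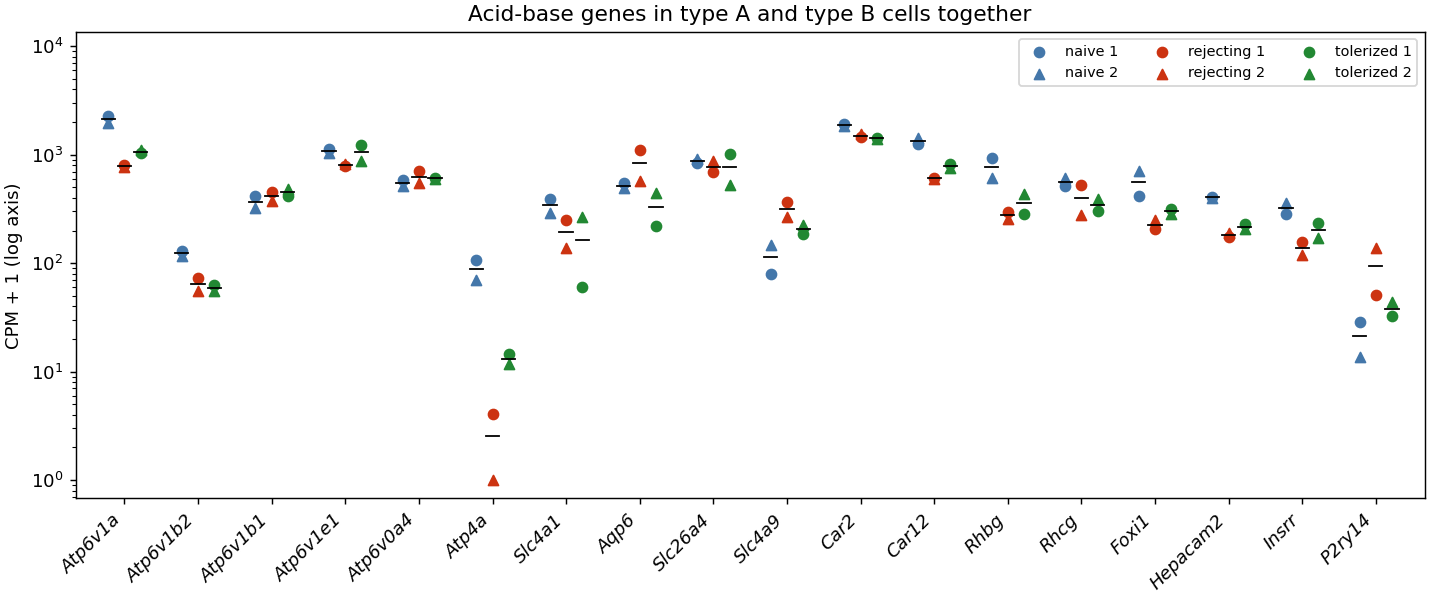
CPM + 1 (log axis) of 18 genes of the proton pump, acid-base transport, and regulation in typed cells, with each point 1 kidney (color for group, shape for replicate) and lines at group means. Naive kidneys lie above all transplanted kidneys for Atp6v1a, Atp4a, Car12, and Hepacam2. Slc4a1, Aqp6, Slc26a4, and Slc4a9 assigned the cells shown, so their points are a description.

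Genes of MHC class I antigen presentation rose in both groups of transplanted kidneys. MHC class I molecules display peptides made by the immunoproteasome and loaded by the TAP transporter, and interferons induce all of these. Of 14 tested genes of MHC class I and peptide loading, all 14 rose in rejecting kidneys (median log2 fold change 4.49) and 13 rose in tolerized kidneys (median 3.86), against 4.71% and 3.89% of all genes. Without the first naive kidney, 10 and 8 of the 14 were called, and without the second 12 and 10. H2-D1 (chromosome 17, 35262730 to 35267499), a class I heavy chain, was at 91.2 and 109 CPM (naive), 3279 and 4746 CPM (rejecting), and 2892 and 3968 CPM (tolerized). It rose by 5.33 ± 0.36 (FDR 4.6e-06) and 5.11 ± 0.35 (FDR 1.2e-05). H2 genes differ in sequence between C57BL/6 and BALB/c mice, so that counts of H2-D1 and H2-K1 on a C57BL/6 genome are uncertain in BALB/c kidneys and among near-identical class I genes. B2m, the light chain that lies outside the H2 region, was at 127 and 234, 2498 and 3231, and 1908 and 2568 CPM, and rose by 4.01 ± 0.36 (FDR 2.9e-05) and 3.65 ± 0.36 (FDR 6.3e-05). The immunoproteasome subunit gene Psmb9 was at 1.2 and 5.08, 252 and 288, and 122.5 and 219 CPM. The peptide transporter gene Tap1 was at 1.2 and 2.54, 260.5 and 159, and 106 and 176 CPM. Nlrc5, the transcriptional activator of class I genes, was called in rejecting kidneys (FDR 0.026) and not in tolerized kidneys (FDR 0.13), and the difference between the latter groups was -1.30 ± 0.70 (FDR 1).

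Genes induced by interferon also rose in both groups of transplanted kidneys. Of 20 tested interferon-induced genes, 19 rose in rejecting kidneys and 18 in tolerized kidneys against naive, with medians of 5.41 and 4.55, and 4.71% and 3.89% of all genes rose. With the 4 genes that had no naive UMI set to their lower bounds, the medians were 5.38 and 4.28. The calls were 12 and 11 without the first naive kidney. In typed cells, 19 and 15 of 19 were called, against 4.35% and 3.34% of all genes, and among typed cells without the first naive kidney 11 and 9 of 21. Iigp1, an interferon-induced GTPase, was at 1.2 and 5.08 CPM (naive), 784 and 1327 CPM (rejecting), and 438 and 745 CPM (tolerized), with log2 fold changes of 8.62 ± 0.58 (FDR 4.6e-06) and 7.79 ± 0.58 (FDR 1.3e-05). Both rejecting kidneys lay above both tolerized kidneys for Iigp1, and all 4 above the naive kidneys. The guanylate-binding protein genes Gbp2b, Gbp4, and Gbp2 had no UMI in intercalated cells of either naive kidney. Against a floor of 3 UMIs over the naive group (2.29 raw CPM), and on raw CPM as for all such bounds here, they were at least 137-fold, 117-fold, and 77.5-fold higher in rejecting kidneys, and at least 108-fold, 56.3-fold, and 47.3-fold higher in tolerized kidneys.

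Promoters of Cxcl10, Gbp2, and B2m are shown because these genes rose together, and each holds 1 match to GAAA, any 2 bases, and GAAA, the core of the interferon-stimulated response element. They cover 250 bases before to 50 after the RefSeq start (GRCm38.p6), written 5′ to 3′ on the strand of the gene, with the match on either strand in capitals. Cxcl10 lies at chr5:92348840-92349139 (minus strand), Gbp2 at chr3:142620413-142620712 (plus), and B2m at chr2:122147437-122147736 (plus).
Cxcl10: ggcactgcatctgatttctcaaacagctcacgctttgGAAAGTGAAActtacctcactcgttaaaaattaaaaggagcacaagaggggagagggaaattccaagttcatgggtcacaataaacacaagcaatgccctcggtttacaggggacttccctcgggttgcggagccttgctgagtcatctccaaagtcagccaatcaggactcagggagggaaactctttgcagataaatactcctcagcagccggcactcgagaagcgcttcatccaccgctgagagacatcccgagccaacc
Gbp2: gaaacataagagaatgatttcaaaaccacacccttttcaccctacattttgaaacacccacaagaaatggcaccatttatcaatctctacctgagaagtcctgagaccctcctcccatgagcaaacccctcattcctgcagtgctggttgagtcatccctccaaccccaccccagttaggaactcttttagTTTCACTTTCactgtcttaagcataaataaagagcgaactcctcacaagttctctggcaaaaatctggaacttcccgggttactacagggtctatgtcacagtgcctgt
B2m: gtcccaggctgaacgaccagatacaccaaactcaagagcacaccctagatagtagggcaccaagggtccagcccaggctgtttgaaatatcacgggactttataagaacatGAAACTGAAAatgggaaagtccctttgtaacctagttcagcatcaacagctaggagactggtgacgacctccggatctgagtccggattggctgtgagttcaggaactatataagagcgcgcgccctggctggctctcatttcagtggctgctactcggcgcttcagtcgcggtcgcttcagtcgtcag
These letters were found in 14 of 19 promoters of the interferon-induced list (73.7%), in 3 of 12 of the MHC class I list (25%), and in 3.49% of all 27025 promoters. The motif TTCNNNGAA, the core of the gamma-activated site, was in 8 of 19 (42.1%), 1 of 12 (8.33%), and 8.47%, and the 2 motifs can overlap. The interferon-induced list was chosen with the response of these genes known, so the shares are a description.

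Genes of MHC class II depended on which cells were counted. Over all intercalated cells, none of 6 tested genes of MHC class II was called by edgeR in either comparison with naive kidneys. At an unadjusted p under 0.05 there were 2 in rejecting and 1 in tolerized kidneys, DESeq2 called 1 and 0, and without the second naive kidney 4 of 7 were called in each. In typed cells, 5 of 6 rose in rejecting kidneys (median 4.03) and 4 of 6 in tolerized kidneys (median 3.18), against 4.35% and 3.34% of all genes, although DESeq2 called none there. Cd74, the invariant chain that guides class II molecules, was at 6.15 and 151 CPM (naive), 1614 and 911 CPM (rejecting), and 430 and 969 CPM (tolerized) in typed cells, and rose by 4.21 ± 0.80 (FDR 0.0061) and 3.37 ± 0.79 (FDR 0.024). Over all cells, it was at 742 CPM in the second naive kidney, where 1 cell held 128 of 292 UMIs. In typed cells without the first naive kidney, 2 and 0 MHC class II genes were called in rejecting and tolerized kidneys, and without the second tolerized kidney 1 was called in tolerized kidneys. Proximal tubule cells of the transplanted kidneys held 4059 to 5698 raw CPM of Cd74, more than the intercalated cells, and the part of free RNA in these values was not tested.

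**Figure D5:**
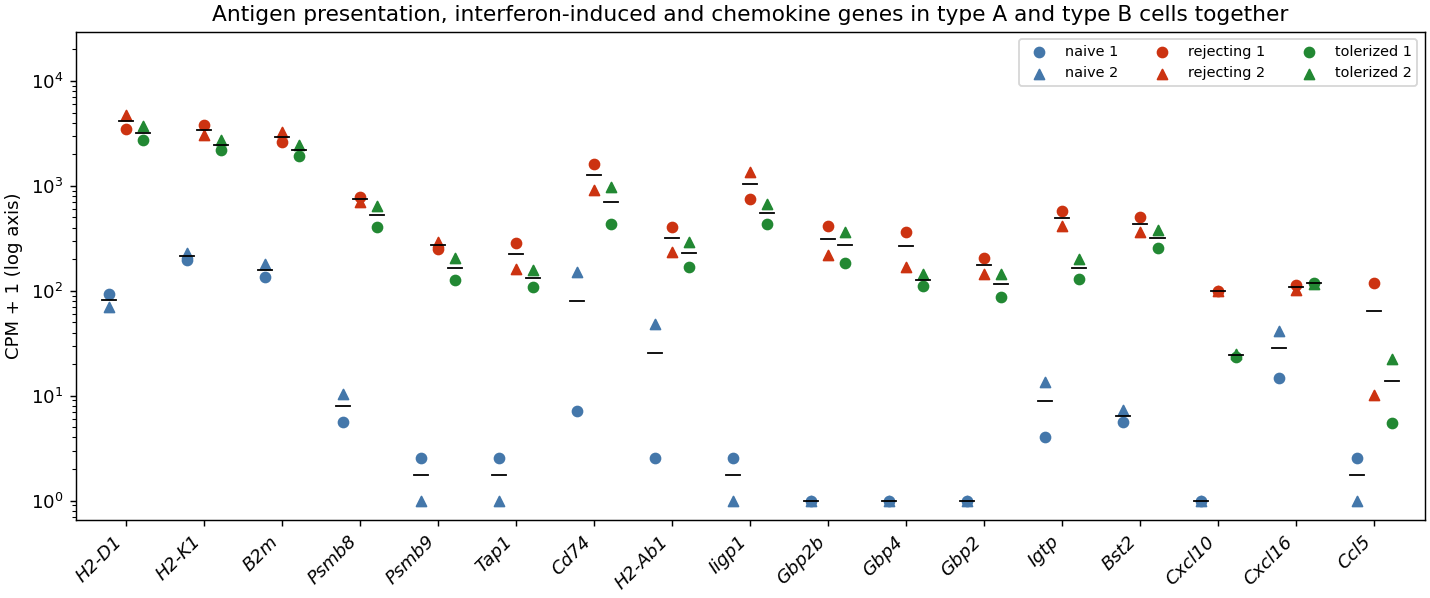
CPM + 1 (log axis) of genes of antigen presentation, interferon response, and chemokines in typed cells, with each point 1 kidney (color for group, shape for replicate) and lines at group means. For H2-D1, B2m, and Iigp1, all 4 transplanted kidneys lie above both naive kidneys, and Cxcl10 is higher in both rejecting than in both tolerized kidneys.

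Of 15 chemokine genes, 4 were abundant enough to test. Cxcl10, a ligand of the T cell receptor CXCR3, had no UMI in naive kidneys and was at 93.4 and 96.5 CPM in rejecting and 21.03 and 23.55 CPM in tolerized kidneys. It was at least 43.5-fold higher in rejecting and at least 9.84-fold higher in tolerized than in naive kidneys, both past the test, the latter not without the first naive kidney. Cxcl16, which attracts CXCR6-positive lymphocytes, rose by 1.94 ± 0.33 (FDR 0.0029) and 1.91 ± 0.32 (FDR 0.0028), from 21.6 and 38.1 to 116 and 100 and to 101 and 109 CPM. These calls were lost without the first naive kidney. Ccl5 was called in rejecting kidneys, at 136 and 8.93 CPM. Without the first rejecting kidney, its log2 fold change went from 5.18 to 2.31 and the call was lost, as it was without either naive kidney. Markers of T cells moved with it: the 11 of the list beyond Cd3e summed to 4.28 and 6.15 raw CPM (naive), 197 and 34.1 raw CPM (rejecting), and 19.9 and 28.3 raw CPM (tolerized) in typed cells. Ccl5, the most abundant of them, made up 121 of the 197. Myeloid markers summed to 0 and 95.3, 286 and 72.1, and 65.8 and 129. The part of leukocyte RNA in the values of the first rejecting kidney was not tested.

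Among 6 tested genes of innate defense, a known role of intercalated cells, 3 rose in rejecting and 2 in tolerized kidneys, against 4.71% and 3.89% of all genes. Pigr, which carries IgA across epithelia, was at 12 and 5.08, 176 and 87.5, and 106 and 92.2 CPM, and rose by 3.71 ± 0.46 (FDR 0.00032) and 3.34 ± 0.45 (FDR 0.00069), and no single kidney decided these calls. Rnase4, an antimicrobial ribonuclease, was at 3.6 and 0, 39.6 and 76.8, and 89.1 and 21.6 CPM, and its calls were lost without either naive kidney and, in rejecting kidneys, without the second. Lcn2, a siderophore-binding protein, was at 10.8 and 50.9, 42.5 and 523, and 23.5 and 28.5 CPM. Its call in rejecting kidneys came from the second, where 1 cell held 181 of 293 UMIs, and without that kidney the log2 fold change was 0.68. The defensin gene Defb1 was at 1299 and 780.5, 2212 and 1483, and 1558 and 2238 CPM (FDR 0.14 and 0.13).

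Of 13 tested genes of tubular injury, 4 rose in rejecting and 4 in tolerized kidneys, against 4.71% and 3.89% of all genes. Krt18 and Krt8, the keratins of simple epithelia, were in both groups. Krt18 was at 114 and 137, 396 and 472, and 524.5 and 368 CPM, and rose by 1.80 ± 0.28 (FDR 0.0016) and 1.84 ± 0.28 (FDR 0.0015), calls that were lost without the first naive kidney. S100a6, a calcium-binding protein, was called in tolerized kidneys at 568 and 32.4 CPM, but 1 cell of the first tolerized kidney held 286 of 459 UMIs, and without that kidney the log2 fold change went from 5.61 to 2.42. Hmox1 and Sox4 were called in rejecting kidneys (FDR 0.042 and 0.026) and Krt19 in tolerized kidneys (FDR 0.027), and each of these calls was lost without the first naive kidney. Sox4 (FDR 0.059) and Krt19 (FDR 0.061) did not pass in typed cells.

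Of 28 tested nuclear genes of the respiratory chain, 5 fell in rejecting and 2 in tolerized kidneys, against 4.41% and 3.76% of all genes. The counts in typed cells were 3 and 2 of 28, against 3.09% and 2.31% of all genes. The medians over all cells were -0.49 and -0.38, beside 0.02 for all genes. Proximal tubule markers moved with them over all cells, at medians of -1.96 and -1.72, and their part was not tested. Sdha, the flavoprotein of succinate dehydrogenase, was at 557 and 554, 218 and 186, and 281 and 256 CPM, and fell by 1.47 ± 0.25 (FDR 0.0025) and 1.05 ± 0.24 (FDR 0.017). Ndufa1, a subunit of complex I, fell from 774 and 938 to 402 and 393 and to 439 and 418 CPM. Calls for Sdha and Ndufa1 were lost without the first naive kidney. Of 13 mitochondrially encoded genes, mt-Nd1 fell in both comparisons and 1 rose in each, mt-Atp8 in rejecting and mt-Nd6 in tolerized kidneys, beside 4.71% (rejecting) and 3.89% (tolerized) of all genes higher and 4.41% and 3.76% lower. In typed cells, 2 of 13 fell in rejecting kidneys, mt-Nd1 and mt-Nd3, against 3.09% of all genes.

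Of 19 tested immediate early and heat shock genes, 2 rose in rejecting kidneys, and 1 rose and 2 fell in tolerized kidneys, all against naive. Over all genes, 4.71% rose in rejecting, and 3.89% rose and 3.76% fell in tolerized kidneys. In typed cells, Hspb1 was the 1 gene of 19 that rose in rejecting kidneys and none rose in tolerized kidneys, where 2 fell. The shares of all genes in typed cells were 4.35% higher in rejecting, and 3.34% higher and 2.31% lower in tolerized kidneys. The chaperone gene Hspa1a was at 475 and 330, 478 and 466, and 113 and 200 CPM, and fell by 1.37 ± 0.31 in tolerized kidneys (FDR 0.017). Its co-chaperone gene Dnajb1 was at 247 and 242, 280 and 339, and 125 and 114 CPM, and fell by 1.03 ± 0.24 (FDR 0.022). Both calls were lost without either naive kidney or the first tolerized kidney, and that of Dnajb1 also without the second tolerized kidney. The small heat shock protein gene Hspb1 rose by 2.08 ± 0.43 in rejecting (FDR 0.0099) and 1.51 ± 0.42 in tolerized kidneys (FDR 0.048). The first call was lost without the second naive or second rejecting kidney, and the second call without any 1 of the 6 kidneys but the second tolerized.

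Some of the genes with the largest changes had few or no UMIs in other cells or in the other groups. Rnase1 (chromosome 14, 51144998 to 51146785), a secreted ribonuclease, had no UMI in naive intercalated cells and was at 144 and 62.5 CPM in rejecting and 140 and 41.2 CPM in tolerized kidneys, at least 47.2-fold and 40.6-fold higher. Principal and proximal tubule cells held at most 1.18 raw CPM, and all kept barcodes other than intercalated cells, summed per kidney, at most 2.48. Within the types, it was at 43.3 and 5.38, and 110 and 15.04 CPM in type A cells of rejecting and tolerized kidneys, and at 272 and 93.7, and 177 and 76.7 CPM in type B cells. Its calls were lost without the first naive kidney. Klkb1, the plasma prekallikrein gene, was at 54.02 and 27.97 CPM in naive kidneys and had no UMI in the 4 transplanted kidneys, which made it at least 11.1-fold lower in rejecting and 23.2-fold lower in tolerized kidneys. The identifiers of Klkb1 and Pnp in the files carry the names Gm45753 and Gm49342 in GENCODE release M21. Pnp, a purine nucleoside phosphorylase, was at 60.02 and 68.6 CPM in naive kidneys. It had no UMI in the intercalated, principal, or proximal tubule cells of any transplanted kidney. Both genes had at most 3 UMIs in all kept barcodes of the 4 transplanted kidneys, and Rnase1 had at most 3 in those of the 2 naive kidneys. The naive and transplanted libraries were counted on different gene lists, whose part in these 3 genes was not tested. The Pnp calls were lost without the first naive kidney. F830016B08Rik and Gm4951, both of the interferon-inducible GTPase family, were also without naive UMIs and past the test in both comparisons, the former not without either naive kidney.

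Other epithelial cells of the same kidneys changed in the same direction for most of these genes. Of the 361 genes higher in rejecting than in naive intercalated cells, 96.1% were also higher in principal cells and 94.7% in proximal tubule cells, where 75.5% and 67.7% of all tested genes had the same sign as in intercalated cells. For the 338 lower genes, the shares were 97.9% and 84.0%. Against naive kidneys, the 298 genes higher in tolerized kidneys had the same sign in 96.0% and 96.3%, and the 288 lower genes in 72.6% and 85.1%, with 69.5% and 68.8% for all tested genes. For the 288 lower genes, the share in principal cells was thus near that of all tested genes. Iigp1, for example, was at 12.03 and 10.04 raw CPM in naive principal cells, 1507 and 2204 raw CPM in rejecting, and 1608 and 1243 raw CPM in tolerized. Atp6v1a was at 586 and 515, 296.5 and 480.4, and 399 and 347 raw CPM in principal cells, and at 215 and 205, 176 and 184, and 191.5 and 202.5 in proximal tubule cells. Foxi1 was at most 2.36 raw CPM in both of these cell classes in every kidney. The principal cells also held transcripts of other cells. Their proximal tubule markers summed to 13250 and 9184 raw CPM (naive), 3308 and 3088 (rejecting), and 21160 and 32170 (tolerized). Their principal cell markers summed to 15250 and 20440, 16020 and 18290, and 18040 and 6932. The B cell marker Igkc was at 3827 raw CPM in the second rejecting kidney. The part of these transcripts in the shared directions was not tested.

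Tolerized and rejecting kidneys were told apart for 1 gene of 7664 by edgeR (0.013%), with 356 genes at an unadjusted p under 0.05 and 4 genes by DESeq2. With the replicate number as a block, edgeR called 5, of which 1 was higher and 4 were lower in tolerized kidneys. The gene was Sparcl1, a matricellular protein, at 60.6 and 75.6 CPM in tolerized and 0 in both rejecting kidneys. Of its UMIs, 47 of 49 lay in 1 untyped cell of the first tolerized kidney and 75 of 77 in 1 cell of the second. In typed cells, edgeR called no gene, 350 had an unadjusted p under 0.05, DESeq2 called 6, and edgeR called 0 to 25 with 1 kidney left out. Over all cells, the count was 0 without either naive kidney, 14 without the first rejecting, 12 without the second rejecting, 14 without the first tolerized, and 44 without the second tolerized kidney. Cxcl10 was lower in tolerized kidneys, by 2.08 ± 0.31 on the log2 scale, without overlap of the groups, but did not pass (FDR 0.091). Of the 20 interferon-induced genes, 19 had a negative and 1 a positive log2 fold change (median -0.87), and the groups did not overlap for 11, against 31.6% of all genes. Of the 14 genes of MHC class I and peptide loading, all had negative values (median -0.30), and 5 did not overlap. Of 19 immediate early and heat shock genes, 18 had negative values (median -0.55), and 12 did not overlap. None of these 3 lists had a gene past the test by edgeR, with 10, 2, and 6 genes at an unadjusted p under 0.05, and DESeq2 called 0, 0, and 1 (lower).

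Each type was also tested alone. In type A cells, edgeR called 145 of 3174 genes (4.57%) in rejecting and 79 (2.49%) in tolerized against naive kidneys, and 5 (0.158%) in tolerized against rejecting. In type B cells, it called 371 of 5744 genes (6.46%), 424 (7.38%), and 1 (0.0174%), the last being Fxyd4, a subunit that modulates the sodium pump in principal cells. Fxyd4 was higher in tolerized kidneys, and its call was lost without marked doublets, where the 1 gene called was lower. Without the first naive kidney, the counts against naive kidneys were 85 and 36 in type A and 143 and 132 in type B cells, and without the second they were 155 and 151 in type B. Without the first rejecting kidney, they were 228 and 174 in type A and 528 and 717 in type B, and without the second 174 (type A) and 714 (type B) for tolerized kidneys. Without the first or second tolerized kidney, type B cells had 242 or 247 calls in tolerized kidneys. Leaving out 1 kidney gave 2 to 62 genes in type A and 1 to 60 genes in type B cells for tolerized against rejecting kidneys, the highest without the first and the second rejecting kidney, respectively. H2-D1 in type A cells was at 134 and 156, 4706 and 5331, and 3017 and 3986 CPM, and in type B cells at 61.5 and 30.8, 2278 and 4521, and 2619 and 3618 CPM. For rejecting against naive kidneys, the value of type A minus type B was -0.90 ± 0.45 for H2-D1 (FDR 0.86) and 0.03 ± 0.44 for B2m (FDR 1), and neither passed the test.

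The difference in response between the types was tested as an interaction over 5331 genes, with the kidney as a block. It passed for 8 genes (0.15%) in rejecting against naive, 9 (0.169%) in tolerized against naive, and 28 (0.525%) in tolerized against rejecting kidneys. Of these, 3, 3, and 9 were in the marker lists of other tubule cells. Of the 28, 15 were positive and 13 negative. Ass1 and Acsm2, outside these lists, were positive. In type A cells, Ass1 was at 0 and 5.38 CPM (rejecting) and 274 and 94.0 CPM (tolerized). Acsm2 was at 18.6 and 0, and 483 and 86.5 CPM. Without cells marked by the doublet score, the value of Ass1 went from 6.45 to 2.31 and that of Acsm2 from 6.16 to 2.19. Without the first naive kidney, no gene passed in the 2 comparisons with naive kidneys, and leaving out 1 other kidney gave 3 to 37 and 4 to 78. For tolerized against rejecting, the range was 12 (without the second rejecting) to 91 (without the second tolerized). Stress genes were among the genes outside the tubule marker lists. Hspa1a was at 717.5 and 615 CPM (naive), 923 and 1194 CPM (rejecting), and 143 and 357 CPM (tolerized) in type A cells. In type B cells, it was at 465.5 and 273, 126.5 and 107.5, and 105 and 153 CPM. Both rejecting kidneys were thus the highest of the 6 in type A and both were under the naive kidneys in type B, and the interaction was 2.35 ± 0.41 for rejecting against naive (FDR 0.018) and -2.29 ± 0.43 for tolerized against rejecting (FDR 0.013). Atf3, a stress-induced transcription factor, was at 348 and 115, 1437 and 818, and 977 and 590 CPM in type A and at 514 and 440, 266 and 212, and 213 and 439 CPM in type B cells, with an interaction of 3.23 ± 0.53 for rejecting against naive (FDR 0.014). Dnajb1 (2.85 ± 0.51, FDR 0.022) and Nr4a1, an immediate early nuclear receptor gene (3.15 ± 0.60, FDR 0.034), were the other stress genes among the 8, and these 2 and Hspa1a were singled out after their values were seen. Type A sums of the transplanted kidneys rested on 12, 9, 4, and 11 cells, and on 12, 3, 0, and 9 cells without those marked by the doublet score. In a fit without marked cells, which therefore had no type A sum for the first tolerized kidney, 15 genes passed in rejecting against naive, 5 in tolerized against naive, and 10 in tolerized against rejecting kidneys. Of the genes above, 6 of 8, 3 of 9, and 8 of 28 passed there as well. Atf3 (3.37 ± 0.46, FDR 0.00014) and Dnajb1 (2.68 ± 0.53, FDR 0.011) were among them, and Hspa1a (1.78 ± 0.43, FDR 0.078) and Nr4a1 (2.27 ± 0.77, FDR 0.61) were not.

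Markers of other tubule cells were present in the summed cells. The 15 proximal tubule markers summed to 11800 and 11810 raw CPM (naive), 6342 and 1793 raw CPM (rejecting), and 9602 and 3934 raw CPM (tolerized) over all intercalated cells, with Kap the most abundant. In typed cells, the sums were 3934 and 6480, 3705 and 1796, and 3857 and 2902, with Gpx3 the most abundant. Over all cells, 9 of 15 were called lower in rejecting and 7 lower in tolerized than in naive kidneys, against 4.41% and 3.76% of all genes. Of 13 tested in typed cells, 3 were lower in rejecting, and 1 was lower and 1 higher in tolerized kidneys. Over all genes in typed cells, 3.09% were lower in rejecting, and 2.31% were lower and 3.34% higher in tolerized kidneys. Principal cell markers summed to 4374 and 6433, 3534 and 2792, and 2267 and 4623 raw CPM in typed cells, and of 12 tested there, 2 were called lower in rejecting (Aqp3, a basolateral water channel, and Hsd11b2, an enzyme that inactivates glucocorticoids) and 1 in tolerized kidneys (Aqp3), against 3.09% and 2.31% of all genes. Markers of the distal convoluted tubule summed to 4327 and 3025, 1331 and 10750, and 5414 and 4069, most of it S100g, a calcium-binding protein. Endothelial and stromal markers summed to 699 raw CPM in the first tolerized kidney over all cells, against 27.6 in its typed cells. The part of these transcripts in the group differences was not tested. In typed cells, the medians were 4.67 and 3.85 for MHC class I and peptide loading and 5.19 and 4.38 for interferon-induced genes. With genes that had no naive UMI (1 and 4) set to their lower bounds, they were 4.13 and 3.79, and 5.11 and 4.195.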

How the data were processed

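Kidney suspensions were run on the 10x Genomics platform, and per the labels and file headers the authors deposited raw UMI counts per gene and barcode made with CellRanger on mm10 (version 3.0.1 in headers of transplanted kidneys, none in naive headers). Naive and transplanted kidneys had different gene lists (28208 genes shared) and barcode sets. No row lacked a gene name. Total UMIs per library were 41562534 and 34874702 (naive), 56837038 and 48111410 (rejecting), and 96803926 and 94316013 (tolerized).

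The members and the 24 gene lists were chosen with earlier results of these data known. UMIs were summed over the cells of each kidney, since cells are not replicates, and tested with edgeR 4.0.16 (quasi-likelihood, TMM scaling, filterByExpr, all 3 groups in 1 fit, limma 3.58.1, R 4.3.3). The 6 selecting genes were not tested in all cells, nor all 10 rule genes within the types. Principal cells had at least 2 UMIs of Aqp2 and Hsd11b2 together, and proximal tubule cells at least 2 of Slc34a1 and Lrp2 and none of Aqp2, both without UMIs of the selecting pair or the 4 excluded genes. The p values measure only the spread between these kidneys.

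Named genes were the 5 largest changes in each direction among called genes without overlap, the 4 most abundant members of each list, the rule genes, the 3 smallest interaction p values per comparison, and the 8 largest differences between types in each direction at a mean of 50 CPM or more. Not all of them are described, some results are not reported here, and other list members were named after their values were seen. Coordinates are from GENCODE M21 (GRCm38) and promoters from RefSeq (GRCm38.p6), matched by symbol.

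Alternatives were DESeq2 1.42.0 as test or scaling, no mitochondrial genes, no filter on low counts, a replicate block, only the 2 groups compared, each kidney left out, cells with at least 1500 UMIs, at most 20% mitochondrial UMIs, at least 3 or at least 1 selecting UMI, no Aqp2 UMI, no doublets by Scrublet (in scanpy 1.11.5, share scaled to the number of barcodes), and thinning to 1500 UMIs. Typed cells, at least 10 selecting UMIs, and no doublets within the types were added after seeing the data. Counting and figures used matplotlib 3.10.9, pandas 2.3.3, scipy 1.17.1, and numpy 2.4.6 under Python 3.11.15. The code was tested on simulated data. The study's own clusters were not used here. Its tests, DESeq2 within the Seurat package and DESeq2 on counts pooled per sample for macrophage clusters, were not repeated.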

Additional observations from a re-analysis of the deposited data

Results flagged for a closer look

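Genes with the smallest p values for a difference in response between type A and type B cells (edgeR's quasi-likelihood test, Benjamini-Hochberg adjustment) are given as values, type A minus type B on the log2 scale, with CPM for the first and second kidney of the naive, rejecting, and tolerized groups. With groups of 2, single kidneys were not tested as outliers. Type A sums of the first tolerized kidney rested on 4 cells, all marked by the doublet score. Where a group is at 0, the fitted value depends on the prior count and is no bound.

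Tolerized against rejecting, Lcn2 differed by -12.65 ± 1.27 (FDR 5.87e-05), at 29.0 and 167, 92.9 and 1560, and 0 and 0 CPM in type A, and between 0 and 32.6 CPM in type B. In the second rejecting kidney, 1 cell held 181 of the 293 Lcn2 UMIs of all intercalated cells. For Fxyd4, a principal cell marker, the value was -4.71 ± 0.51 (FDR 5.87e-05), at 1417 and 3365, 1523 and 1017, and 285 and 1132 CPM in type A and 104 and 238, 25.3 and 52.4, and 456.5 and 702.5 CPM in type B.

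Rejecting against naive, Tmem52b differed by -6.20 ± 0.86 (FDR 0.00423), at 583 and 198 CPM in naive and 6.19 and 0 CPM in rejecting type A cells, against 591 and 357, and 133 and 488 CPM in type B. Klk1 differed by -4.68 ± 0.75 (FDR 0.014), at 1297 and 344, and 24.8 and 16.1 CPM in type A, against 3227 and 2395, and 449 and 4268 CPM in type B. The value of Atf3 was 3.23 ± 0.53 (FDR 0.014).

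Tolerized against naive, Tmsb4x, an actin-binding peptide, differed by -2.69 ± 0.33 (FDR 0.000433), at 2026 and 3511, and 1185 and 2474 CPM in type A, and 439 and 647, and 1749 and 2822 CPM in type B. Fxyd4 differed by -3.67 ± 0.45 (FDR 0.000433) and Lcn2 by -8.71 ± 1.504 (FDR 0.0289). Without cells marked as doublets, the type A sums of tolerized kidneys came from 1 kidney, taken to vary like the other groups, and Lcn2 in tolerized against naive kidneys did not pass (-8.00 ± 2.00, FDR 0.16). Without the first naive kidney, no gene passed in either comparison with naive kidneys.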

How the results depend on the processing

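With 2 kidneys per group, a single kidney could decide a call, and naive and transplanted kidneys differed in strain, age, grafting, and processing. Of 1351 values of 74 named gene comparisons under the alternatives, 1148 kept direction and call, 197 kept direction and lost the call, and 6 turned. The losses were most frequent without the first naive kidney (42), without the second (31), and with at most 20% mitochondrial UMIs (28). The 6 were, in rejecting against naive kidneys, Car12 (0.12), Foxi1 (0.060), and Insrr (0.21) at most 20% mitochondrial UMIs, and Miox (0.24) and Cldn10 (0.12) at 10 or more selecting UMIs, and Hbb-bs in tolerized against naive kidneys without the second tolerized kidney (-3.605, range with 1 kidney left out -3.605 to 7.597). The cause of each was not tested.

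The share of barcodes without Ptprc and Cd3e UMIs, tolerized minus rejecting (-0.0195 points), was 0.0737 at most 20% mitochondrial UMIs, 1.46 at 1 or more selecting UMIs, and 0.0974 when thinned to 1500 UMIs, and ranged from -0.328 to 0.289 with 1 kidney left out. It was negative and larger in size in typed cells, at least 3 or 10 selecting UMIs, at least 1500 UMIs, and without doublets. In typed cells, the kidneys were at 0.605% and 1.28% (rejecting) and 0.590% and 0.766% (tolerized). The type A share of typed intercalated cells, rejecting against naive (2.42 points), was -31.25 at most 20% mitochondrial UMIs, -6.29 without doublets, and -3.66 when thinned, and ranged from -5.22 to 10.05.

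Counts of called genes follow for tolerized against rejecting, rejecting against naive, and tolerized against naive kidneys. For all cells (1, 699, and 586), DESeq2 gave 4, 391, and 276, no filter 142, 1101, and 1003, at most 20% mitochondrial UMIs 0, 197, and 113, and no doublets 0, 412, and 272. Without Aqp2-positive cells, the first count was 0 and the third 368, and the first was also 0 for only the 2 groups, typed cells, and at least 3 or 10 selecting UMIs. Typed cells with DESeq2 gave 6, 282, and 196. With 1 kidney left out, counts ranged from 0 to 44, 130 to 758, and 88 to 655. In typed cells they were 0 without either naive kidney, 25 and 21 without the first and second rejecting kidney, and 9 and 6 without the tolerized kidneys. For rejecting against naive they were 154 to 557 (192 without the second naive and 449 without the second rejecting kidney), and for tolerized against naive 76 to 659 (134 without the second naive, 262 and 234 without the tolerized kidneys). Type A cells (5, 145, and 79) gave 8, 93, and 51 with DESeq2, 70, 326, and 171 with no filter, and 2 to 62, 85 to 228, and 36 to 174 with 1 kidney left out. Type B cells (1, 371, and 424) gave 147 and 152 in the last 2 comparisons with DESeq2, 67, 629, and 651 with no filter, and 1 to 60, 143 to 528, and 132 to 717 with 1 kidney left out. Without doublets, tolerized against rejecting gave 1 in type A and tolerized against naive 243 in type B cells. The interaction (28, 8, and 9) gave 10, 15, and 5 without doublets, 14, 4, and 2 with DESeq2 and 12 to 91, 0 to 37, and 0 to 78 with 1 kidney left out.

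The labels do not say whether replicate numbers stand for the study's 2 experiments. Deviations of same-numbered kidneys correlated at -0.034, -0.028, and 0.061 over 7664 genes. No pairing was assumed. With the replicate block, all cells gave 5, 791, and 671 calls, and tolerized against rejecting gave 11 in type A and 8 in type B cells.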

Other observations

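The remaining lists held few genes with enough UMIs to be tested. Of 5 tested markers of the thick ascending limb, Egf, Cldn10, and Ppp1r1a fell in rejecting kidneys and Cldn10 and Ppp1r1a in tolerized kidneys, both against naive, where 4.41% and 3.76% of all genes fell. Cldn10, a claudin, was at 57.6 and 63.6, 14.2 and 23.2, and 24.7 and 19.6 CPM, and fell by 1.61 ± 0.37 (edgeR, FDR 0.018) and 1.44 ± 0.32 (FDR 0.017). In typed cells, 3 of these markers were tested and none passed or had an unadjusted p under 0.05. Neither the 3 tested markers of the distal convoluted tubule, the 5 of myeloid cells, the 2 cell cycle genes, nor the 3 sex-linked genes had a call by edgeR in any comparison, with 1 gene of each list at an unadjusted p under 0.05 in rejecting against naive kidneys. The 1 tested gene each of the B cell and the endothelial and stromal markers was not called.

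A few single cells stood apart. In the second rejecting kidney, 1 intercalated cell held all 67 UMIs of Mki67 and 59 of the 61 UMIs of Top2a were in 1 cell, both genes of dividing cells. Of the erythroid genes, Hbb-bs, a hemoglobin chain, was the tested one and was called higher in tolerized than in naive kidneys (log2 fold change 6.59 ± 1.77, FDR 0.039), but 1 cell of the second tolerized kidney held 3418 of its 3454 UMIs there. In typed cells of that kidney it was at 30.6 CPM.

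Among all kept barcodes, 7 genes called higher in rejecting and in tolerized intercalated cells than in naive ones had at most 3 UMIs in the 2 naive kidneys. They were Tldc2, Ifi44l, Gbp10, Rnase1, Gnb5, Krt80, and Zdhhc23. Of the genes called lower, 2 (Klkb1 and Pnp) had at most 3 UMIs in all kept barcodes of the 4 transplanted kidneys.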
